A study of Mus musculus with 24 samples.

Results

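Protein-protected sites (PPSs) that lay across an exon-intron boundary were examined in MEL cells, a murine erythroleukemia line that starts terminal erythroid differentiation in culture. A PPS is a stretch of RNA that was shielded from nuclease when proteins were still bound. Members were the PPSs that reached at least 5 nt into the exon and at least 5 nt into the intron of a GENCODE protein-coding transcript on the same strand, in mm10 coordinates. PPSs of 20 to 40 nt, the size left by a ribosome, were set aside first, following the study. Of 356432 remaining PPSs in the 3 lists, 22540 were members. They were 7718 of 114907 at day 0 (6.72%), 6888 of 119487 at day 2 (5.76%) and 7934 of 122038 at day 4 (6.50%).

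The samples were undifferentiated MEL cells (day 0) and MEL cells kept in DMSO for 2 or 4 days, with 2 replicates each. All were crosslinked with formaldehyde and each culture was split between a single-stranded RNase (ssRNase) and a double-stranded RNase (dsRNase), with and without proteins. The names inside each merged PPS gave 12 call sets, 1 for each day, RNase and replicate, of 14832 to 73952 PPSs. MEL cells are 1 transformed line induced with a chemical, and read depth per library is not known from these lists. All 11 erythroid markers looked at had exonic PPSs at day 4. The alpha globin gene Hba-a2 and the anion exchanger gene Slc4a1 had none at day 0, against 4 and 7 at day 4, while the transferrin receptor gene Tfrc had 29 and 34. Every other marker also had exonic PPSs at day 0. Among them was Hba-a1, a near-identical copy of Hba-a2, with 3 at day 0 and 4 at day 4.

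A transcript still holding its intron can be protected across both kinds of splice site. At the 5′ splice site, where an exon ends and the intron begins, U1 snRNP base-pairs with the RNA. At the 3′ splice site, SF1 and then U2 snRNP hold the branch point, and U2AF binds the pyrimidine tract and the AG that ends the intron. Erythroid cells are known for introns that stay in polyadenylated RNA and that change during terminal differentiation.

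The boundaries crossed in most call sets show what these sites look like. They are printed 5′ to 3′ from the GRCm38 sequence, with 10 exon bases in capitals and 20 intron bases in lower case, so that the case changes at the boundary. The first 5 are the 5′ splice sites found in all 12 call sets that carried the highest scores, at most 1 per gene.
Eif4a2, intron 8 of 11, chr16:23111254-23111283, plus strand: TTCTGCTCTGgtaagagttagatttagtaa
Rbm3, intron 6 of 6, chrX:8143227-8143256, minus strand: CAAAATGTAGgtgagacctgaagattggca
Ofd1, intron 11 of 22, chrX:166413281-166413310, minus strand: AAGAATAAAGgtgatgtggatggatggctc
Ywhaz, intron 6 of 6, chr15:36775219-36775248, minus strand: CAACTTAACAgtgagtacctaaggcagtct
Prkar1a, intron 8 of 11, chr11:109663098-109663127, plus strand: AATCCTCATGgtgagaggctgtgggcttag
The next 5 are the 3′ splice sites chosen in the same way, found in 10 to 12 call sets.
Eif4a2, intron 8 of 11, chr16:23111483-23111512, plus strand: tgagttgtttgcatttgcagCATGGTGACA
Ofd1, intron 10 of 22, chrX:166413365-166413394, minus strand: ttagtcattctgattctcagGTACCAACTG
Epb41, intron 4 of 20, chr4:132000295-132000324, minus strand: gtatttgtgtgtcttcacagAAACATGCTA
Sfi1, intron 10 of 32, chr11:3157927-3157956, minus strand: aggccttaacttcctgtcagACATGTTGCT
Uhrf2, intron 11 of 15, chr19:30087156-30087185, plus strand: actgaaatattctgatatagGTGGTAAAAT

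Eif4a2 encodes a translation initiation helicase, and its intron 8, of 239 nt, was the one intron with both ends in these lists. The Eif4a2 PPS that crossed them was 413 nt long at day 0, 623 nt at day 2 and 633 nt at day 4, so that at each day it held the whole intron. Ofd1, which encodes a centriole protein, had a PPS of 274, 246 and 287 nt at the 3 days that covered exon 11, of 74 nt, and ran out of it on both sides. The Ofd1 PPS ended 44, 35 and 44 nt into intron 11. The PPS of Rbm3, a cold-inducible RNA-binding protein, ended 39, 31 and 28 nt into intron 6. At Ywhaz (a 14-3-3 adaptor) it ended 28, 31 and 53 nt into the intron, and at Prkar1a (a regulatory subunit of protein kinase A) 60, 60 and 32 nt. On the exon side the day 0 PPSs of Rbm3 and Ywhaz, at 154 and 163 nt, exceeded the exons, of 83 and 96 nt. Annotated exons of other transcripts lay over the boundaries of Eif4a2, Rbm3 and Ywhaz. Only 8 5′ splice sites and 2 3′ splice sites of any gene were crossed in all 12 call sets.

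Members crossed 5′ splice sites far more often than 3′ splice sites. At day 0, 5916 PPSs (5.15% of the list) crossed a 5′ splice site and 2069 (1.80%) a 3′ splice site, at day 2 the numbers were 5412 (4.53%) and 1649 (1.38%), and at day 4 they were 6170 (5.06%) and 2032 (1.67%). PPSs across both kinds numbered 267, 173 and 268. Most members, 95.3%, crossed 1 boundary only, and 92 held a whole intron. Members were long, with median lengths of 78, 71 and 78 nt, against 63, 58 and 62 nt for all PPSs of these lists. Calls of both replicates were held by 47.7%, 48.8% and 53.5% of members, against 30.8%, 30.8% and 35.8% of all PPSs. A PPS merged from several calls can be longer, and a longer PPS can span a boundary more readily. No comparison at equal length was made, so neither difference can be separated from the rule that chose members.

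The ssRNase call sets carried the larger 5′ splice site shares. With ssRNase, PPSs across a 5′ splice site made up 6.76% and 7.70% of the 2 replicates at day 0, 5.83% and 5.80% at day 2, and 8.995% and 7.21% at day 4. With dsRNase the shares were 4.66% and 4.79% at day 0, 4.52% and 4.81% at day 2, and 4.31% and 4.28% at day 4. Thus every ssRNase value lay above every dsRNase value. Within each culture the dsRNase share was lower, with a mean difference of -2.49 ± 1.34 percentage points (SD, n = 6 cultures, lower in 6 of 6, exact sign-flip test, two-sided p = 0.0312, Benjamini-Hochberg adjusted p = 0.05 over 8 tests, which is the threshold itself). With 6 cultures 0.0312 is the smallest p this test can give, and it measures only the spread between these cultures.

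**Figure D1:**
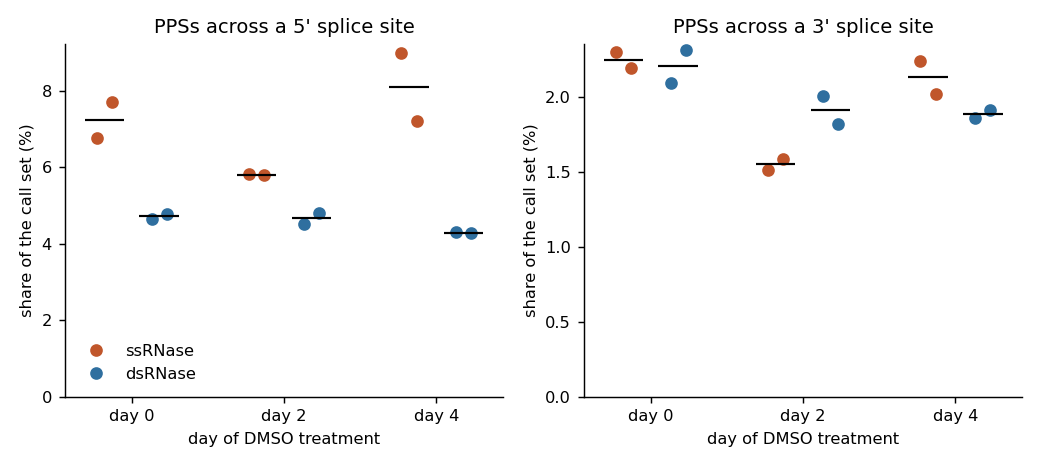
Share of each call set (y axis, percent of its PPSs) that crossed a 5′ splice site (left) or a 3′ splice site (right), by day of DMSO treatment. Each point is 1 call set and black lines are means of 2 replicates; the ssRNase points at 5′ splice sites lie between 5.80% and 8.995%, all above the dsRNase points of 4.28% to 4.81%.

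The 3′ splice sites did not separate the RNases in this way. With ssRNase the shares were 2.30% and 2.19% at day 0, 1.51% and 1.58% at day 2, and 2.24% and 2.02% at day 4. With dsRNase they were 2.09% and 2.31%, 2.01% and 1.82%, and 1.86% and 1.91%. The ranges overlapped, and the difference within cultures was 0.03 ± 0.32 percentage points (SD, n = 6, dsRNase higher in 3 of 6, exact sign-flip test p = 0.812, adjusted p = 0.812). Among PPSs of 41 to 60 nt only, a window added after seeing the data, the dsRNase share was higher by 0.284 points in 6 of 6 cultures (exact p = 0.0312, adjusted p = 0.0417). The excess of 5′ over 3′ splice sites held in every call set, at 2.94 to 4.02 times with ssRNase and 2.07 to 2.64 times with dsRNase. Over cultures it was 3.82 ± 0.44 percentage points (SD, n = 6, 6 of 6, exact p = 0.0312, adjusted p = 0.05). It was 1.81 points among PPSs made of a single call (6 of 6, exact p = 0.0312, adjusted p = 0.0625) and 2.18 points among PPSs of 41 to 60 nt.

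Changes between days were described only, because with 2 cultures a day no exact permutation test can go below p = 0.333. The share across 5′ splice sites differed from day 0 by -0.0927 percentage points at day 4, with -0.458 to 0.299 over the 4 pairs of replicates. At day 2 the difference was -0.619 points in the lists (pairs -1.06 to -0.236). The share across 3′ splice sites was lower than at day 0 in all 4 pairs at both times, with list differences of -0.421 at day 2 (pairs -0.557 to -0.470) and -0.136 at day 4 (pairs -0.232 to -0.156). The list differences lie outside those ranges because a merged PPS counts once in a list and once in each replicate that called it. Member length also moved, being shortest at day 2, and its part in these differences was not tested.

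The RNases differed in what happened by day. With ssRNase the 5′ splice site share at day 2 differed from day 0 by -1.42 points in the mean, and was lower in all 4 pairs (-1.90 to -0.932). At day 4 it was 0.872 points above, but higher in only 3 of 4 pairs (-0.488 to 2.23). With dsRNase it differed from day 0 by -0.430 points at day 4, lower in all 4 pairs, and the difference at day 2 was -0.0591 points, with 2 pairs on either side. At 3′ splice sites the ssRNase share was lower in all 4 pairs at day 2 (-0.786 to -0.606) but in 3 of 4 at day 4 (-0.280 to 0.05), and the dsRNase share was lower in all 4 pairs at day 2 (-0.491 to -0.0849) and day 4 (-0.454 to -0.179). Strands were most uneven in 1 call set: the day 0 ssRNase replicate 2 call set held 34112 plus and 16883 minus strand PPSs. On plus strand PPSs alone the day 4 difference at 5′ splice sites was -0.519 points and on minus strand PPSs alone 0.407 points, so this difference had no settled direction. Replicate against replicate, the day 2 share at 5′ splice sites was lower than at day 0 in all 4 pairs (-1.06 to -0.236). Without day 2 replicate 1 the difference was 0.252 points. The day 4 differences turned sign without either day 4 replicate (up to 0.786 at 5′ and 0.0725 at 3′ splice sites). These left-out values set 1 replicate against the merged list of the other day, where shares are lower. Their signs thus do not show that replicates disagree.

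Coverage was then followed through the boundaries. For this, 53008 5′ and 53923 3′ splice sites were used, from genes with a PPS, with exons of at least 100 nt, introns of at least 200 nt and no exon of another transcript over them. At 5′ splice sites a median of 7.83% of boundaries were covered 20 nt inside the exon in the 6 ssRNase call sets, 4.35% at the last exon base and 3.26% at the first intron base. Coverage was still 2.18% at 20 nt into the intron, 1.31% at 30 nt and 0.619% at 40 nt, and it was 0.481% at 100 nt. In every call set of either RNase the highest intron coverage was at the first intron base, at 5.29 to 9.85 times the level 100 nt away with ssRNase and 4.23 to 6.13 times with dsRNase. Protection thus ran from the exon into the start of the intron and fell to the intron level by 40 to 50 nt.

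**Figure D2:**
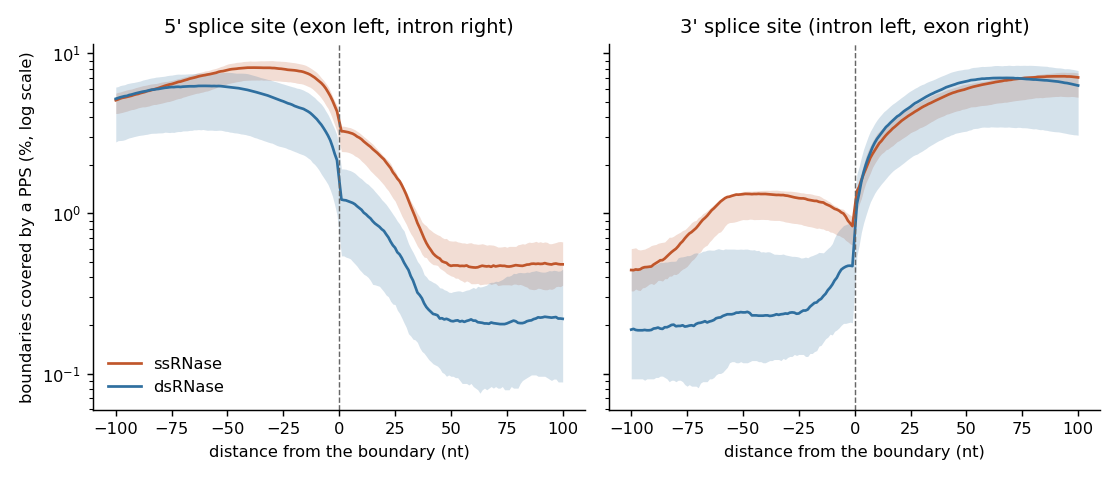
Percent of boundaries covered by a PPS (y axis, log scale) against the distance from the 5′ (left, 53008 boundaries) or 3′ splice site (right, 53923 boundaries) in nt. Lines are medians and bands the range of 6 call sets per RNase. On the left ssRNase coverage drops beyond about 30 nt of the intron. On the right it has a broad plateau, highest 35 to 49 nt before the exon.

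The 3′ splice sites looked different with each RNase. In the ssRNase call sets the intron coverage was highest 35 to 49 nt before the exon, on a broad plateau, and dropped towards the boundary. The medians were 1.32% at 50 nt, 1.21% at 20 nt and 0.834% at the last intron base. This plateau takes in the usual place of the branch point but does not single it out. The highest coverage was 0.922% to 1.40% of boundaries, 1.42 to 1.71 times the coverage of the last intron base and 2.25 to 4.26 times that of the base 100 nt upstream. In the dsRNase call sets coverage was 0.0927% to 0.454% at 100 nt, 0.117% to 0.597% at 50 nt and 0.134% to 0.540% at 20 nt before the exon. There the highest intron coverage lay 2 to 4 nt before the exon, at 0.210% to 0.866% of boundaries. On the exon side the RNases were alike, with medians of 6.002% and 6.68% covered at 50 nt.

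The length that members reached into introns showed the same split. Among the 16574 5′ splice site crossings by 1-boundary PPSs, the intron side had a median of 24 nt (quartiles 15 and 33 nt), and 47.0% reached 20 to 39 nt. Medians of the call sets were 24 to 26 nt with ssRNase and 23 to 25 nt with dsRNase. Among the 4913 3′ splice site crossings, PPSs with ssRNase calls alone had a median of 39 nt, and 25.7% of them reached 60 to 99 nt. PPSs with dsRNase calls alone had a median of 12 nt, and 71.2% reached no more than 19 nt. Call set medians were 35 to 54 nt with ssRNase and 16 to 21 nt with dsRNase, and did not overlap.

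**Figure D3:**
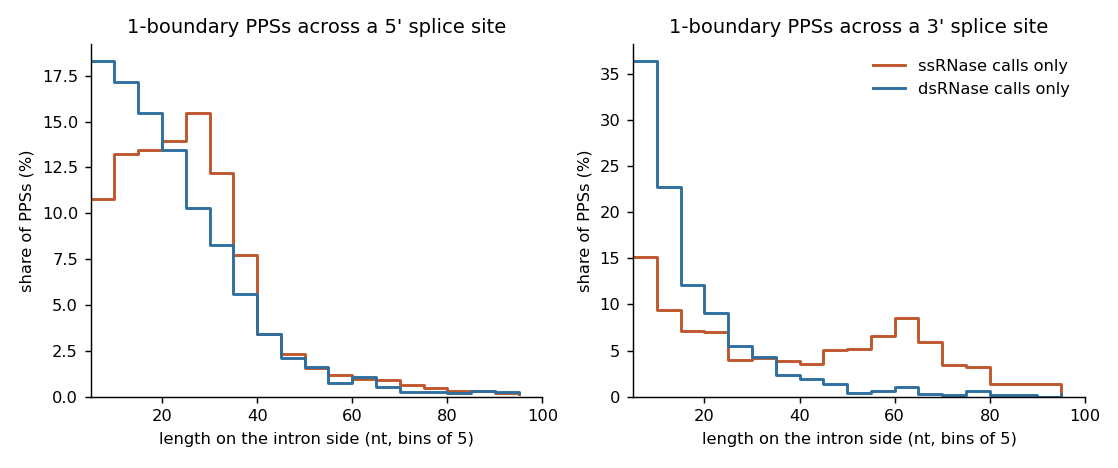
Distribution of the length on the intron side (x axis, nt in bins of 5) for PPSs that cross 1 boundary and hold calls of 1 RNase only, as percent of those PPSs (y axis). At 5′ splice sites (left) both RNases fall off after 30 to 40 nt; at 3′ splice sites (right) dsRNase PPSs pile up at the shortest lengths, while ssRNase PPSs have a further rise near 60 nt.

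Averaged over the RNases, the intron side was shorter at 5′ than at 3′ splice sites, with a difference of -6.58 ± 3.68 nt (SD, n = 6 cultures, shorter in 6 of 6, exact sign-flip p = 0.0312, adjusted p = 0.05). This mean joins opposite values, -18.5 nt for ssRNase (-28 to -11 over the cultures) and 5.33 nt for dsRNase (2 to 9). Among PPSs of 41 to 60 nt, where a long reach cannot occur, it turned to 3.75 nt. PPSs made of a single call gave -1.33 nt (4 of 6 cultures, exact p = 0.219).

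Many PPSs that reached an exon end stopped there. Of the PPSs with at least 5 nt up to an exon end, at boundaries with no exon over them and introns of at least 50 nt, 60.3% to 66.95% crossed the 5′ splice site with ssRNase and 43.1% to 53.0% with dsRNase. At 3′ splice sites 34.7% to 45.7% crossed with ssRNase and 24.3% to 35.3% with dsRNase. PPSs that ended exactly on the last exon base before a 5′ splice site were 31.1% to 37.8% with ssRNase and 45.1% to 54.6% with dsRNase, and those at 3′ splice sites 51.8% to 63.0% and 62.4% to 74.6%. An end flush with the exon is also where a spliced read leaves one exon for the next. Ends flush with the exon were thus more frequent with dsRNase, with no overlap between the RNases at 5′ splice sites and a slight overlap at 3′ splice sites.

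Crossed boundaries were compared with uncrossed boundaries of the same side in the same genes. The splice site score sums, over 3 exon and 6 intron bases at 5′ splice sites or 20 intron and 3 exon bases at 3′ splice sites, the log2 frequency of each base against an even composition, so a high score is close to the common sequence. Crossed 3′ splice sites scored lower, with 7.17 against 9.20, a difference of -2.03 ± 0.13 (SD, n = 6 cultures, lower in 6 of 6, exact p = 0.0312, adjusted p = 0.05). At boundaries with no exon over them the difference was -1.48 ± 0.12 and again lower in 6 of 6. Pyrimidines made up 68.7% of the 18 bases before the AG at crossed sites and 75.4% at uncrossed ones, lower in 6 of 6. The Uhrf2 site printed above, of a ubiquitin ligase gene, has a score of 3.33, and the Sfi1 site has 66.7% pyrimidines and a score of 4.72.

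At 5′ splice sites the score difference did not pass the test. Crossed sites scored 7.86 and uncrossed ones 8.02, a difference of -0.16 ± 0.14 (SD, n = 6, lower in 5 of 6, exact p = 0.0938, adjusted p = 0.125), and -0.01 ± 0.10 at boundaries with no exon over them. The share of 5′ splice sites crossed at any day was 9.46% in the lowest group of 3 by score, 9.58% in the middle and 9.16% in the highest (30333 to 30770 boundaries each, no exon over them). For 3′ splice sites it was 4.76%, 2.77% and 2.01% (30511 or 30512 each). Weak 3′ splice sites were thus crossed more often than strong ones, while the 5′ splice site shares were close together.

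**Figure D4:**
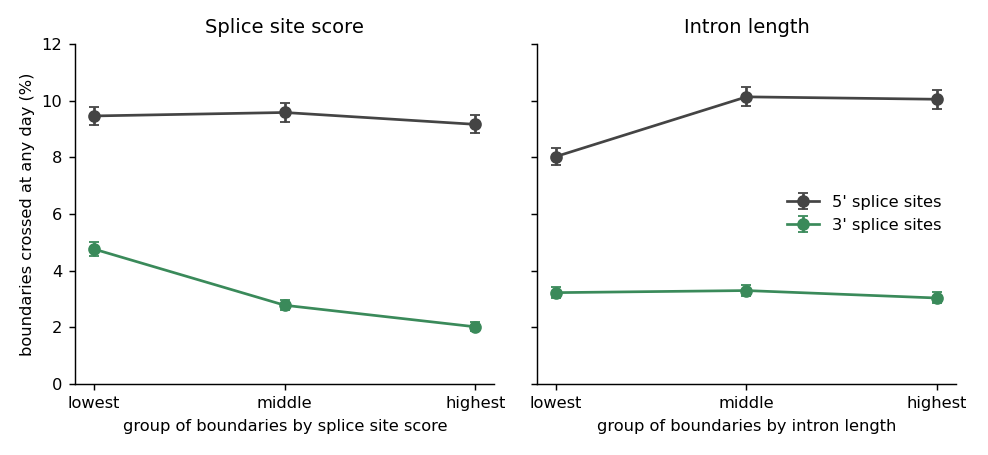
Percent of annotated boundaries crossed at any day (y axis) in 3 groups of near-equal size by splice site score (left) or intron length (right), for genes with a PPS and boundaries with no exon over them. Bars are Wilson 95% intervals, which cover counting error only; 3′ splice sites fall from 4.76% to 2.01% with rising score.

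Introns at crossed boundaries were longer, by 0.0677 ± 0.0132 in log10 length (SD, n = 6, 6 of 6, exact p = 0.0312, adjusted p = 0.05). The difference was larger at 5′ splice sites, at 0.0859 ± 0.0193, than at 3′ splice sites, at 0.0230 ± 0.0075, where the ssRNase mean was 0.0460 and the dsRNase mean 3.98e-05. By groups of intron length, 3.22%, 3.29% and 3.03% of 3′ splice sites were crossed from the shortest to the longest. In the 41 to 60 nt window it was 0.0212 with an adjusted p of 0.0714 (exact p = 0.0625). GC content over 50 nt on either side did not pass, at -0.30 ± 0.67 percentage points (SD, n = 6, lower in 4 of 6, exact p = 0.281, adjusted p = 0.321). This mean joins opposite sides, with -0.869 points at 5′ splice sites (lower in 5 of 6 cultures) and 1.07 points at 3′ splice sites (higher in 6 of 6). The exon side of crossed 5′ splice sites had 49.1% GC against 51.0% (lower in 6 of 6), and that of crossed 3′ splice sites 49.9% against 48.9% (higher in 6 of 6). First introns were under-represented among crossed 5′ splice sites (14.3% against 18.8%, lower in 6 of 6) and over-represented among crossed 3′ splice sites (21.7% against 18.1%, higher in 6 of 6). Boundaries inside an annotated retained-intron transcript made up 21.3% of crossed and 14.6% of uncrossed 5′ splice sites, and 25.1% and 16.2% of 3′ splice sites, higher in 6 of 6 cultures on both sides. Exons of other transcripts lay over 28.2% of the crossed 5′ and 37.2% of the crossed 3′ splice sites. Of all annotated 5′ and 3′ splice sites they lay over 14.9% and 14.2%. Within genes this share was 31.5% at crossed and 21.8% at uncrossed 5′ splice sites, higher in 6 of 6 cultures. At 3′ splice sites it was 40.9% and 23.5%, again higher in 6 of 6. In all, 6776 members crossed no boundary free of such exons, so that these PPSs may be exonic in another isoform.

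Crossed boundaries were spread over many genes. In all, 12142 distinct 5′ splice sites in 4681 genes and 4652 3′ splice sites in 2624 genes were crossed. Of the 5′ splice sites, 1421 were crossed at all 3 days (11.7%), and 2822, 2262 and 2869 at day 0, day 2 or day 4 only. Of the 3′ splice sites, 219 were crossed at all days (4.71%). Day 0 shared 39.6% of its 5′ splice sites with day 4, while 58.2% of the sites of day 0 ssRNase replicate 1 were found again in replicate 2. For 3′ splice sites these values were 24.7% and 57.05%. Sharing of replicates and of days cannot be compared here. Calls were merged within a day, and a merged PPS counts whole for each replicate in it, while days were not merged. A day also joins the call sets of both RNases and both replicates. With dsRNase, replicates shared 21.3% to 48.8% of 5′ splice sites, and how deep the libraries were is not known.

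Genes of splicing factors and of the red cell were set beside all protein-coding genes with a PPS, in which 10.7% of 113770 annotated 5′ splice sites and 4.19% of 111037 3′ splice sites were crossed at any day. All 9 lists lay above both values. The paper reports a minor correlation of PPS coverage with RNA abundance, which was not measured here. The counts were therefore also set against the PPSs of the same genes. Among all PPSs over protein-coding genes, 6.90% were members.

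Splicing regulators were crossed often. Of the hnRNP genes, whose proteins coat nascent RNA, 99 of 258 5′ splice sites (38.4%) and 63 of 251 3′ splice sites (25.1%) were crossed, and 10.0% of their PPSs were members. Of the SR protein genes, whose products bind exonic enhancers, 33 of 87 (37.9%) and 20 of 85 (23.5%) were crossed, with 8.81% of PPSs members. The CLK and SRPK kinases, which phosphorylate SR proteins, had 29 of 102 and 17 of 101 crossed, and 13.3% members. The U1, U2 and branch point factors had the lowest 5′ share of the 9 lists, 44 of 240 (18.3%), with 30 of 234 3′ splice sites (12.8%), and 9.96% of their PPSs were members. An exon of another transcript lay over 20 of 44 and 18 of 30 crossed boundaries of this list, 21 of 33 and 11 of 20 of the SR protein genes, 33 of 99 and 27 of 63 of the hnRNP genes, and 11 of 29 and 11 of 17 of the kinases.

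Within these lists, Hnrnpk, which encodes a poly(C)-binding protein, had 16 boundaries crossed, 8 and 7 in the replicates at day 0, 4 and 3 at day 2, and 11 and 11 at day 4. Hnrnpm, a splicing regulator gene, had 4 and 3, 7 and 10, and 11 and 9, while its PPSs of all kinds went from 51 to 79 and 83. In the SR family Srsf5 had 9 boundaries crossed and Srsf6 had 7, with Srsf5 at 6 in both replicates of day 0 and 3 in both of day 4. Srpk1, an SR protein kinase gene, had 8 and 6 at day 0 and 1 and 0 at day 4, and its PPSs went from 56 to 22. Clk4 had 10, Luc7l3 (a U1-associated protein) 13 and Snrnp70 (the U1 70K protein) 12 in all. For Snrnp70 the counts of the replicates were 8 and 9 at day 0 and lower at day 4, with 7 and 4.

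**Figure D5:**
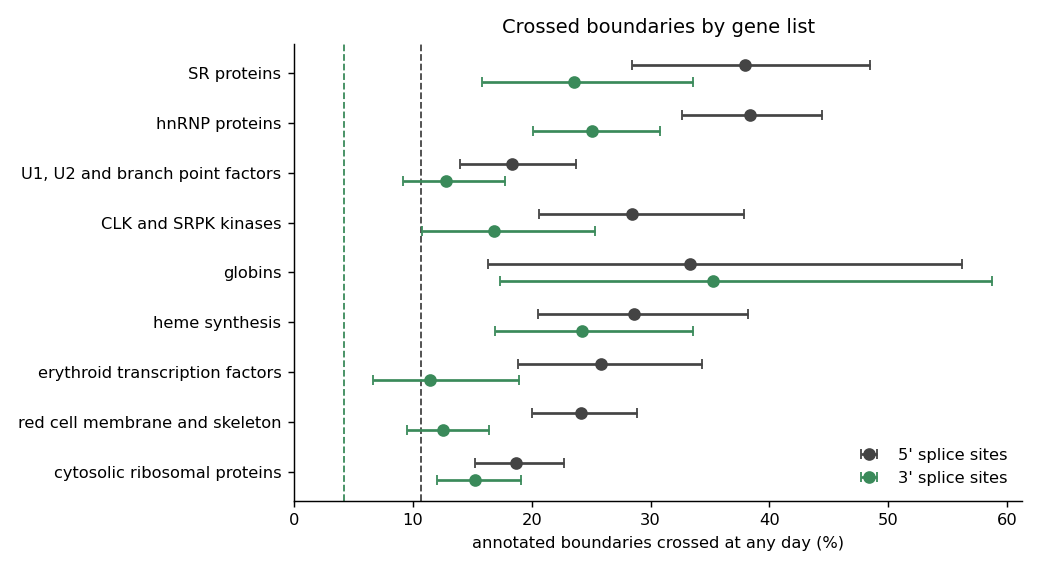
Percent of annotated 5′ (grey) and 3′ (green) splice sites crossed at any day (x axis) in 9 gene lists, with Wilson 95% intervals that cover counting error only. Dashed lines are the values over all protein-coding genes with a PPS, 10.7% and 4.19%; all lists lie to the right of them.

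Genes of heme synthesis and of the red cell membrane had more crossed boundaries at the later days, and more PPSs of any kind. Heme synthesis genes had 5 of 98 5′ splice sites crossed at day 0, 13 at day 2 and 23 at day 4, and 3, 12 and 17 of 99 3′ splice sites. For all genes with a PPS the shares by day were 5.28%, 4.83% and 5.49% for 5′ and 1.93%, 1.52% and 1.88% for 3′ splice sites. PPSs of any kind over heme synthesis genes numbered 66, 171 and 235, and members made up 12.1%, 14.0% and 14.0% of them. Ppox, of the step before iron insertion, had 3 and 3, 6 and 6, and 8 and 9 boundaries crossed in the replicates of the 3 days, and all 10 of its crossed boundaries had an exon of another transcript over them.

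In the red cell membrane and skeleton list, 30, 45 and 67 of 364 5′ splice sites and 12, 17 and 30 of 358 3′ splice sites were crossed at the 3 days. Sptb (beta spectrin) had 1 and 2 boundaries crossed in the day 0 replicates, 3 and 9 at day 2, and 18 and 14 at day 4. Ank1 (ankyrin, which ties spectrin to the membrane) had 7 and 6, 10 and 10, and 15 and 12. Their PPSs of any kind went from 32 to 329 in Sptb and from 65 to 245 in Ank1, and the share of members in this list was 9.47%, 6.39% and 6.23%. Members thus took a smaller share of the PPSs of these genes at day 4 than at day 0.

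The globin genes have short transcripts with few boundaries, and 6 of 18 5′ and 6 of 17 3′ splice sites were crossed. Hba-a1 had 0 and 0 boundaries crossed at day 0, 3 and 3 at day 2 and 4 and 4 at day 4, and Hba-a2 0 and 0, 3 and 3, and 3 and 3. These alpha globin genes are near-identical copies, so a read may belong to either. Among erythroid transcription factors, members were only 2.34% of 2566 PPSs, the lowest of the lists. Their crossed 5′ splice sites numbered 16, 17 and 16 by day and their 3′ splice sites 3, 7 and 4, while their PPSs of any kind went from 943 to 872 and 751. Zfpm1 (the GATA1 cofactor FOG-1) had 2 and 2, 5 and 3, and 7 and 7 boundaries crossed. Myb, a gene known to be shut off during differentiation, had 3 and 5 at day 0 and none in any later replicate, with 48, 9 and 3 PPSs in all. Cytosolic ribosomal protein genes had 78 of 417 (18.7%) and 60 of 395 (15.2%) crossed, of which 44 and 42 had an exon of another transcript over them. In this list Rpl3 had 9 and Rpl13a 7, both hosts of small nucleolar RNAs.

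Over all genes, 5220 of 9811 had a crossed boundary and 1929 of them had just 1. PPSs with calls of both replicates of a day crossed 5.87% of the 5′ and 2.19% of the 3′ splice sites. The gene with the most boundaries crossed by PPSs of both replicates was Sfi1, which encodes a centrin-binding protein, with 45, followed by Tdrd9 (a germline helicase) with 31, Herc1 (a ubiquitin ligase) with 23 and Ofd1 with 20. Eif4a2, Cep295 (a centriole protein), Itga2b (the integrin of megakaryocytes) and Kmt2d (a histone methyltransferase) had 19 each. Sfi1 had 29 of 34 5′ splice sites and 19 of 33 3′ splice sites crossed, at 36 and 32 in the day 0 replicates, 37 and 37 at day 2, and 34 and 35 at day 4, so it hardly moved. Sfi1 is known as a gene with further copies in the mouse genome, and which copy its reads came from is uncertain. In Eif4a2, 18 of 19 crossed boundaries had an exon of another transcript over them, in Tdrd9 and Ofd1 none.

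A merged PPS counts whole for each replicate in it, which can make the replicates of a day alike. Of the 5220 genes with a crossed boundary, day 4 had more of them than day 0 in all 4 pairs of replicates in 1068, and fewer in 912. The largest increases in this count after Sptb were Uba7 (the ISG15-activating enzyme, 3 and 2 at day 0, 17 and 17 at day 4), Epb41 (protein 4.1, 4 and 3, then 14 and 14), Vps13d (a lipid transfer protein, 3 and 2, then 15 and 14) and Madd (a RAB exchange factor, 4 and 4, then 10 and 14). For Uba7 the PPSs of any kind went from 23 to 36, with an exon of another transcript over 13 of its 19 crossed boundaries, and for Epb41 from 76 to 282. The largest decreases were Tbc1d31 (12 and 17, then 0 and 0), Anln (anillin of the cleavage furrow, 15 and 14, then 3 and 4), Mia2 (a factor of protein export from the endoplasmic reticulum, 9 and 12, then 2 and 1), Adcy7 (an adenylate cyclase, 9 and 12, then 2 and 1) and Mdn1 (a ribosome assembly ATPase, 12 and 13, then 3 and 0). All 5 also had fewer PPSs of any kind at day 4, with Tbc1d31 going from 118 to 9 and Anln from 103 to 22. The genes were ranked by these counts, so no test is given. Fewer transcripts and less protein per transcript cannot be told apart in these lists.

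Single boundaries were also sought that were crossed in both replicates of one end of the time course and in no call set of the other. For day 4 they were 1873 5′ splice sites (15.4% of those crossed at any day) and 759 3′ splice sites (16.3%). For day 0 they were 1508 (12.4%) and 748 (16.1%), so the 3′ shares were close together. High-scoring 5′ splice sites of day 4 are printed in the same way, since they include a step of heme synthesis.
Ache, intron 2 of 4, chr5:137291092-137291121, plus strand: AGACCTGCAGgtgactaatggctgataggg
Alad, intron 2 of 11, chr4:62514054-62514083, minus strand: TCTTTGTCACgtgagtcccccaaatgggcc
The 3′ splice sites of day 4 follow.
Sfi1, intron 26 of 32, chr11:3135533-3135562, minus strand: tgatgagagctgtattgtagGCAGCCCACA
Ddx5, intron 12 of 12, chr11:106782247-106782276, minus strand: tccacttactttcttgacagGTCGTTCCAG
Morf4l2, intron 3 of 3, chrX:136734492-136734521, minus strand: caatactttatgtattacagTGGTTGGAAT

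At Alad, of an early step of heme synthesis, the PPS was called in all 4 call sets of day 4 and ran 270 nt into intron 2, of 491 nt. This 5′ splice site had no exon of another transcript over it and was not crossed at day 2. The Ache site (acetylcholinesterase, carried on red cells) was called in 3 of 4 call sets of day 4, where the PPS was 802 nt long, nearly all in the exon, and in 2 at day 2. At 3′ splice sites, the PPSs of Sfi1, Ddx5 (an RNA helicase) and Morf4l2 (a chromatin protein) reached 8, 29 and 20 nt into the intron at day 4, and all 3 sites were also crossed at day 2.

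In the other direction, the 5′ splice sites of Angptl6 (a secreted angiopoietin-like protein), Hspa9 (the mitochondrial chaperone mortalin) and Luc7l3 had all 4 call sets at day 0 and none at day 2 or day 4. Their PPSs had scores of 120.7, 107.7 and 93.2 and ended 11, 38 and 19 nt into the intron. The 3′ splice sites were the ones before the same exons of Luc7l3 and Hspa9, and the end of intron 9 of Eif4a2. In Luc7l3 and Hspa9 a single PPS of 188 and 198 nt thus covered an exon of 66 and 88 nt with both of its splice sites at day 0. An exon of another transcript lay over both of these Luc7l3 splice sites, so that its PPS may be exonic there, and over neither of those of Hspa9. The Hspa9 3′ splice site was still crossed in 3 call sets at day 2. The Eif4a2 site had 3 call sets at day 0, 4 at day 2 and none at day 4. At day 4, however, the Eif4a2 PPS across intron 8 ran on to position 23111814 in intron 9, whose last base is 23111816. It thus reached almost to this boundary without counting as crossing it.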

How the data were processed

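PIP-seq of 24 libraries from MEL cells was used in the form of 3 deposited lists of PPSs, 1 per day. As stated in the submitters' processing notes and the methods, the authors trimmed reads with cutadapt 1.2.1, aligned them to mm10 with TopHat2 2.0.10, called PPSs with a modified CSAR package against the matched libraries digested without protein, and merged the calls of a day. The deposited score of a PPS is an enrichment value from the authors' caller, by which PPSs were ranked and 1 alternative was filtered. The deposited name field (unit: other) lists the calls merged into a PPS and gave the RNase and replicate. A merged PPS counted for every call set named in it, with its whole extent. Read depth is unknown, and Wilson intervals cover counting error only.

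Boundaries came from GENCODE release M21 protein-coding transcripts on 21 chromosomes, and sequence from GRCm38. No PPS passed a chromosome end, 98.6% of 5′ splice sites began with GT and 99.6% of 3′ splice sites ended with AG. Shares of call sets and differences within cultures were tested by an exact sign-flip over 6 cultures, with Benjamini-Hochberg adjustment over 8 tests and a threshold of 0.05. The design text says that each replicate was divided between the RNases, which pairs them. Shares, intron-side lengths and splice site score differences were checked on simulated single-call sites with known settings. The other measures were not checked in this way. Introns are numbered along the transcript with the most introns.

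Genes and boundaries were named by rule: the 8 genes with the most boundaries crossed in PPSs of both replicates, the 5 largest rises and falls from day 0 to day 4, the 2 leading members of each list, the 5 boundaries of each side in most call sets, and the 3 of each side at 1 end of the time course only, ranked by score, with predicted and RIKEN genes left out. Of the items it picked, 1 gene was left out of the text. Members and lists were chosen with earlier results of these data known. Alternatives were 1 and 15 nt on each side, no exon over the boundary, basic transcripts, all lengths, single calls, a score of 10 or more, both replicates, each replicate left out, and no replicate block. Chosen after seeing the data were each strand alone, introns of at least 50 nt and PPSs of 41 to 60 nt. Tables were made with pandas 2.3.3 and NumPy 2.4.6 in Python 3.11.15, intervals with SciPy 1.17.1 and plots with matplotlib 3.10.9.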

Additional observations from a re-analysis of the deposited data

Results flagged for a closer look

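The intron-side length, 5′ minus 3′ splice site, had opposite signs with the 2 RNases in all 6 cultures, at -18.5 nt with ssRNase (-28 to -11) and 5.33 nt with dsRNase (2 to 9). The difference between the RNases was 23.8 nt (exact sign-flip test, n = 6, two-sided p = 0.0312, the smallest possible, chosen after the values were seen).

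The 3′ splice site share, dsRNase minus ssRNase, was above 0 in both cultures of day 2 (0.236 and 0.495 percentage points) and below 0 in both of day 4 (-0.384 and -0.105). The change between the day means was -0.610 points, and this difference was not tested.

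GC content around crossed boundaries was higher than around uncrossed boundaries of the same genes in both cultures of day 2 (0.344 and 0.690 percentage points) and lower in both cultures of day 0 and of day 4. The day means were -0.606, 0.517 and -0.821 points, which gives a difference of 1.12 from day 0 to day 2 and of -1.34 from day 2 to day 4. These values average both sides: at 3′ splice sites alone the difference was above 0 in all 6 cultures (0.408 to 1.93). The differences between days were not tested.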

How the results depend on the processing

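Of 146 alternative values outside the left-out replicates, 121 were counted as the same. Tested results then kept their side of the threshold, and day differences kept their sign and moved by less than the replicate spread. A tested result that had not passed could change sign and still be counted as the same. The 3′ share difference between RNases did so, at -0.122 points with 15 nt on each side against 0.0261 in the main setting. With single-call PPSs the 5′ share difference between RNases was -3.18 points, the 5′ excess 1.81 points, the intron-side difference -1.33 nt, the 3′ score difference -2.03 and the log10 intron length difference 0.0624, none past the threshold. For 4 of these 5 the exact p stayed at 0.0312 and only the adjusted p rose, to 0.0625. The 3′ share difference from day 0 to day 4 moved to -0.0754 with single calls, -0.0421 with no exon over the boundary, -0.335 at a score of 10 or more and -0.478 with calls of both replicates. That from day 0 to day 2 moved to -0.221, -0.217, -0.755 and -0.819 in these, to -0.289 with 15 nt on each side and to -0.517 with all lengths. Among PPSs of 41 to 60 nt, the intron-side difference was 3.75 nt, the 3′ share difference between RNases 0.284, the GC difference -0.83 and the log10 intron length difference 0.0212. The day 4 and day 2 differences at 3′ splice sites were there 0.0443 and -0.132, and that of day 2 at 5′ splice sites -0.103. By strand, the day 4 difference at 5′ splice sites was -0.519 on plus and 0.407 on minus, and the 5′ score difference passed on minus (-0.25). The cause of these changes was not tested.

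Without 1 culture, 5 remain and no exact p can go below 0.0625. The ranges were -2.79 to -2.05 points for the 5′ share difference between RNases, 3.66 to 3.90 for the 5′ excess, -7.30 to -5.60 nt for the intron-side difference, -2.05 to -1.98 for the 3′ score and 0.0646 to 0.0711 for log10 intron length. Day differences ranged from -0.983 to 0.786 (5′, day 4), -0.436 to 0.0725 (3′, day 4), -1.51 to 0.252 (5′, day 2) and -0.721 to -0.242 (3′, day 2). These day differences set 1 replicate of a day against the merged list of the other day, where shares are lower. Their signs thus do not show a change of direction between replicates. Without the replicate block, as an unpaired comparison within days, the 5′ share difference between RNases was -2.49 (exact permutation p = 0.00926) and the 3′ difference 0.0261 (exact p = 0.806).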

Other observations

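Letters known from the start of introns removed by the minor spliceosome were counted, a choice made after seeing the data. Of 5′ splice sites in genes with a PPS and introns of at least 50 nt, 399 (0.351%) began with GTATCCTT or ATATCCTT, read on the strand of the gene. Of these, 62 were crossed at any day (15.5%, Wilson 95% interval 12.3 to 19.4), against 12060 of 113283 others (10.6%, 10.5 to 10.8). With no exon over the boundary the counts were 40 of 278 (14.4%, 10.7 to 19) and 8674 of 92357 (9.39%, 9.20 to 9.58). By day 31, 29 and 26 were crossed. Sfi1 had the most call sets, 8, followed by Dctn6 (a dynactin subunit), Diaph1 (a formin) and Eif3k (an initiation factor subunit) with 7 each. The letters alone do not settle which spliceosome removes an intron.

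In genes with at least 10 introns, with no exon over the boundary, the first 5′ splice site was crossed in 273 of 4550 cases (6%, Wilson 95% interval 5.35 to 6.73), against 395 of 3592 (11%, 10.0 to 12.1) for the second and 434 of 3536 (12.3%, 11.2 to 13.4) for the third. Alternative first exons raise the number of first 5′ splice sites counted. The last 5′ splice site was crossed in 268 of 3545 (7.56%). At 3′ splice sites the first intron had 119 of 3600 (3.31%), the second 153 of 3775 (4.05%) and the last 108 of 4085 (2.64%).

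Small RNA genes did not account for many members: 43 members overlapped an annotated small nucleolar RNA or microRNA gene on their strand, 17, 15 and 11 by day.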
